A study of Mus musculus with 18 samples.

Results

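The insulin-like growth factor (IGF) axis was described from 9 genes of the count table, chosen by name: the ligand gene Igf1, the receptor genes Igf1r and Igf2r, and the binding protein genes Igfbp2, Igfbp3, Igfbp4, Igfbp5, Igfbp6 and Igfbp7. All 9 were among the 55453 gene symbols counted, and 8 passed the filter on low counts, which kept 16170 genes for testing. Igfbp2 did not pass and is given by its counts. The cells were Tcf21-lineage cardiac fibroblasts from C57BL/6J pups carrying 1 allele each of Tcf21-MerCreMer, a tamoxifen-inducible Cre in the Tcf21 locus, and Rosa-mTmG, a reporter that turns from membrane tdTomato to membrane GFP where Cre has acted. Every pup, controls included, received tamoxifen at P1, and GFP+ cells from the apical portion of the ventricles were sorted, a gate aimed at cells with Tcf21 expression around P1 and their descendants. There were 18 libraries, 3 in each of 6 groups. P2 baseline and P10 baseline came from un-manipulated pups collected at P2 or P10. The groups P2 sham +3 days and, with the apex amputated, P2 resected +3 days came from pups operated at P2, in the window when the heart regenerates, and collected at P5. Likewise P10 sham +3 days and, after amputation, P10 resected +3 days came from pups operated at P10, when it no longer does, and collected at P13. Dissociation was longer at the later ages. Neither sex nor the number of pups behind a library is labelled, and p-values measure the spread between these libraries only.

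IGF1 and IGF2 are secreted growth factors that signal through the receptor tyrosine kinase IGF1R, which passes the signal to the PI3K-Akt and MAP kinase pathways. IGF2R, which also carries mannose 6-phosphate tagged enzymes to lysosomes, has no kinase and clears IGF2 from the cell surface. The binding proteins IGFBP2 to IGFBP6 hold IGFs with high affinity, which can keep them from the receptor or store them in the matrix, and proteases release them. IGFBP7 binds IGFs weakly and is found in basement membrane and around vessels. In the heart IGF1 is a growth and survival factor for cardiomyocytes, and fibroblasts and macrophages are among its local sources.

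Library totals ran from 10462737 to 22980554 counts, which is ample for all members except Igfbp2. The levels below are CPM, the library-size scaled counts of edgeR with its TMM method. All 8 fibroblast markers were detected in every group (summed level 44464 to 103854 CPM per library). Marker lists of other cell types were lower, namely 98.5 to 913 CPM for 10 cardiomyocyte genes, 560 to 2041 CPM for 9 mural genes, 334 to 712 CPM for 9 endothelial genes, 7.76 to 1144 CPM for 12 macrophage genes and 30.1 to 99.3 CPM for 8 epicardial genes. Tek and Eng made up 46.0% and 42.1% of the mean endothelial sum, and Tbx18 85.0% of the epicardial sum. Epicardial Krt8 or Lrrn4 was at 0 in some groups and Wt1 and Upk1b at P10 baseline, while Myh7 was at 0 at P10 sham +3 days. Libraries also differed in the balance of long and short genes. A score, the median log2 CPM of 1827 genes with over 8000 bp of exon minus that of 964 genes with under 2000 bp, set apart P2 sham replicate 1, P10 baseline replicate 1 and P10 sham replicate 1, which lay 1.14, 1.05 and 0.95 above their group. P2 sham replicate 2 and P10 baseline replicate 3 lay 0.89 and 0.75 below theirs, at scores of -1.29 and -1.03. Leaving out the 3 high libraries therefore leaves P2 sham +3 days with scores of -1.29 and -0.63, against -0.07 to 0.20 at P2 resected +3 days.

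The 9 genes lie on 7 chromosomes of GRCm38, and all are protein coding. Igf1 is at chr10:87858265-87937042 (plus strand), Igf1r at chr7:67952827-68233668 (plus) and Igf2r at chr17:12682406-12769664 (minus). Igfbp2, at chr1:72824503-72852474 (plus), and Igfbp5, at chr1:72857932-72874884 (minus), face each other with 5457 bases between them. Igfbp3 is at chr11:7206086-7213923 (minus), 3539 bases from Igfbp1, and Igfbp4 lies elsewhere on the same chromosome at chr11:99041244-99054392 (plus). Igfbp6 is at chr15:102144362-102149511 (plus). Igfbp7, at chr5:77349240-77408041 (minus), shares 7.03% of its exon bases with Polr2b on the other strand. Since strand was not used in counting, reads there cannot be told apart and would have been left out by the authors' counting. No other member shares exon bases with another gene.

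The 250 bases before the RefSeq start site are shown for Igfbp3, Igfbp4, Igfbp6 and Igfbp7, the 4 members that passed a test between the ages (RefSeq sequences on GRCm38.p6, each 5′ to 3′ on the gene's strand). Capitals mark TATA hexamers (TATAAA or TATATA, on either strand) and GC boxes (GGGCGG, on either strand); a marked run of letters is a description and not a binding site. Their windows are chr11:7213924-7214173 for Igfbp3, chr11:99040994-99041243 for Igfbp4, chr15:102143936-102144185 for Igfbp6 and chr5:77408046-77408295 for Igfbp7.
Igfbp3: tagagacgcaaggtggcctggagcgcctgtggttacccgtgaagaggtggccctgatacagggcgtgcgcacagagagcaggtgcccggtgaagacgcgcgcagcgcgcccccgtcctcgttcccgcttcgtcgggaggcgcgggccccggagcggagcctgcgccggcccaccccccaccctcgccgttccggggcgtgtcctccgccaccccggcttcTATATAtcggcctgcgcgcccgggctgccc
Igfbp4: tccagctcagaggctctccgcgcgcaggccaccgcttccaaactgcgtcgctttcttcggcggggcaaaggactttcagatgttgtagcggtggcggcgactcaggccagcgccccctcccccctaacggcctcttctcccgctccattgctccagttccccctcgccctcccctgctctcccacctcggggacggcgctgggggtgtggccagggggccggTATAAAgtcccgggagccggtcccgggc
Igfbp6: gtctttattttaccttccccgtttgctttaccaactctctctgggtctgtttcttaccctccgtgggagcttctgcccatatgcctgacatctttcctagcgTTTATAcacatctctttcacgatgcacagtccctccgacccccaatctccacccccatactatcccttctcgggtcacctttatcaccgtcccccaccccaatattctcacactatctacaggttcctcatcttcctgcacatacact
Igfbp7: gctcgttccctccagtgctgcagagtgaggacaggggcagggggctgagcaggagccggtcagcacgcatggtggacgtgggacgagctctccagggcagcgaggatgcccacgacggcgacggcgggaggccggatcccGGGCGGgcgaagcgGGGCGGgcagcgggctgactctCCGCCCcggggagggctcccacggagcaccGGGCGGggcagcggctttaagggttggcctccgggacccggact
The motifs differed between the 4 windows. Igfbp3 and Igfbp4 each held a TATA hexamer 30 and 28 bases before the start, and Igfbp6 held 1 on the other strand 148 bases before it. Igfbp7 had none and held 4 GC boxes. Over all 32851 such windows in the table, 15.6% held a TATA hexamer and 32.7% a GC box. CG dinucleotides numbered 32 in Igfbp3, 22 in Igfbp4, 26 in Igfbp7 and 7 in Igfbp6, against a median of 6. The Igfbp6 window ends at position 102144185, before the gene start at 102144362 given above. Its motifs and CG count therefore belong to a start other than that one.

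Per length, Igfbp7 was by far the most abundant member in every group. Averaged over 18 libraries, its level was 2584 CPM per kb of exon, the 5th highest of 54586 genes with a known length. Igfbp4 followed at 370 CPM per kb (84th). Igfbp6, at 73.6 CPM per kb, and Igfbp3, at 67.7 CPM per kb, came next, with Igf2r at 31.6, Igfbp5 at 29.9 and Igf1 at 10.2 CPM per kb. Igf1r was low, at 2.96 CPM per kb, and Igfbp2 was near 0. Per length, the summed binding protein RNA was therefore well above the ligand and receptor RNA of these members. Most of it came from Igfbp7 and Igfbp4, while Igfbp5 lay below Igf2r. Levels per length also carry the balance of long and short genes in the libraries, whose part was not tested. From 0.330% to 0.747% of all counts in a library fell on the binding protein genes.

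The summed level of the binding protein genes was higher at P10 in each pair of groups, while its make-up was led by Igfbp7 throughout. The sum was 1910 ± 153 CPM per kb at P2 baseline and 3551 ± 76.9 CPM per kb at P10 baseline (SD, n = 3 each). It was 2260 ± 218 and 4138 ± 192 CPM per kb in the sham groups, and 2497 ± 169 and 4393 ± 424 CPM per kb in the resected groups, P2 first. Igfbp7 made up between 81.5% and 84.2% of the sum in all group means. The share of Igfbp6 was 0.627% ± 0.206 at P2 baseline and 2.55% ± 0.859 at P10 baseline (SD, n = 3 each), and it was 3.62% ± 0.428 at P10 sham +3 days. For Igfbp3 the share was 3.68% ± 1.66 in un-manipulated P2 pups and 1.09% ± 0.20 at P2 sham +3 days (SD, n = 3 each). At the later age it was 0.965% ± 0.237 in un-manipulated pups and 2.99% ± 1.09 at P10 sham +3 days (SD, n = 3 each). Marker sums also differed between the baseline groups without overlap. From P2 to P10 baseline the fibroblast sum was 44464 to 52582 and 69879 to 103854 CPM, the cardiomyocyte sum 641 to 913 and 346 to 462 CPM, the epicardial sum 86.3 to 95.4 and 30.1 to 51.7 CPM, and the mural sum 560 to 884 and 1073 to 2041 CPM. The fibroblast, cardiomyocyte and epicardial sums did not overlap between the sham groups either. Their part in the levels of the members was not tested. In a bulk sample, more RNA per cell and more cells of the kind that make it cannot be told apart.

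**Figure D1:**
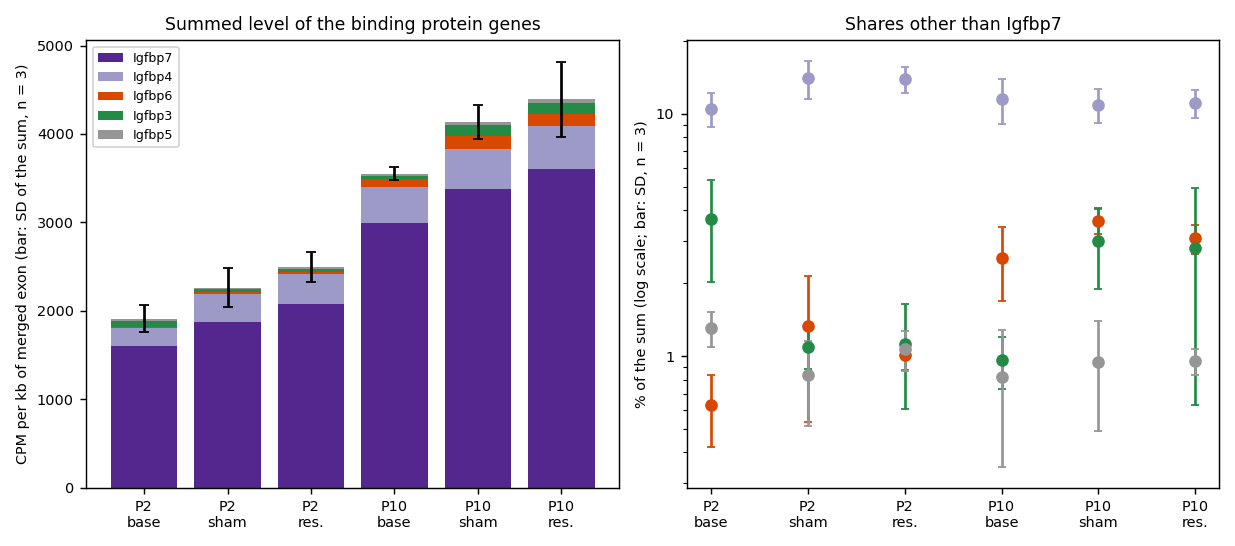
Left, the mean summed level of 5 binding protein genes in each group, in CPM per kb of merged exon on a linear axis from 0, stacked by gene, with the SD of the sum over 3 libraries; right, the percent share of 4 of them on a log axis, as mean ± SD. The sum is 1910 at P2 baseline and 3551 at P10 baseline, Igfbp7 fills over 81% of each bar, and the share of Igfbp3 is lower in both P5 groups than at P2 baseline.

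The ages were compared between un-manipulated pups, between sham groups, between resected groups, and over all 9 P10 against all 9 P2 libraries, here called the window comparison. Each test was edgeR's quasi-likelihood test in 1 fit of all 18 libraries, Benjamini-Hochberg adjusted over 16170 genes and called at an adjusted p under 0.05. At baseline 3 of the 8 tested members were called higher at P10 and 0 lower, where 2.71% of all genes were called higher and 1.68% lower. After sham surgery 3 were higher and 0 lower (all genes 1.54% and 1.65%), and after resection 2 were higher and 0 lower (all genes 0.625% and 0.235%). In the window comparison 4 were higher and 0 lower, with 7.11% and 6.39% of all genes called. The median log2 fold change of the 8 members in that comparison was 0.66, against -0.06 over all genes. Igfbp6 and Igfbp7 were called in all 4 comparisons, Igfbp3 in the sham and window comparisons and Igfbp4 in the baseline and window comparisons. All other members missed the threshold in all 4. The 3 resected libraries of one age did not overlap those of the other for any of the 8 members, which held for 23.3% of all genes. Between the baseline groups only Igfbp4, Igfbp6 and Igfbp7 were apart, and between the sham groups Igfbp3, Igfbp6 and Igfbp7. The share of all genes was not taken for these. The score of long against short genes was also apart between the resected groups, at -0.07 to 0.20 at P2 and -0.33 to -0.24 at P10. Its part was not tested.

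**Figure D2:**
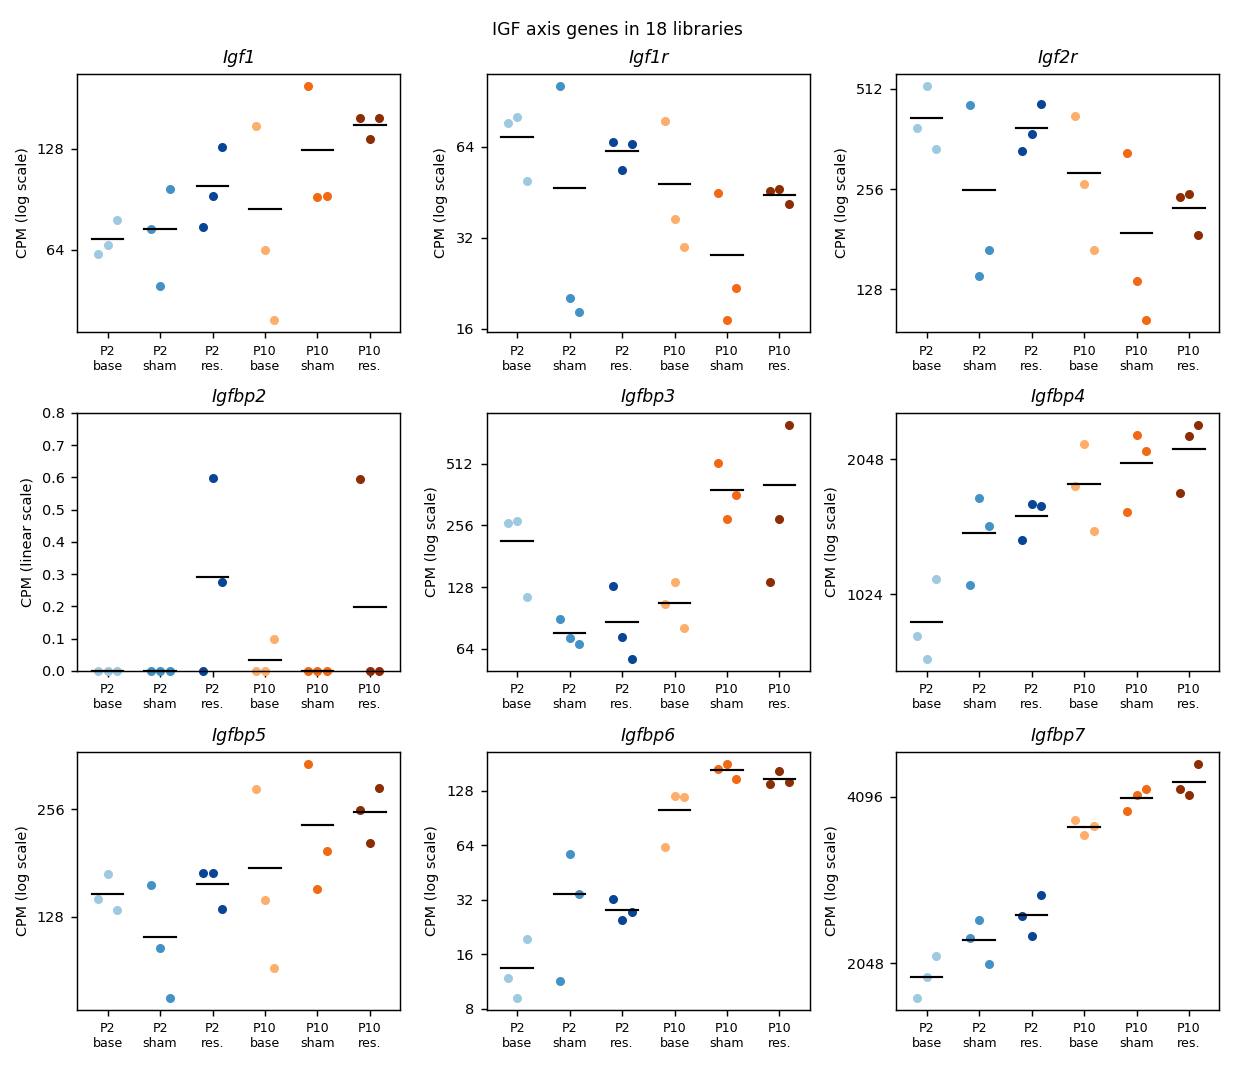
CPM of the 9 members in the 18 libraries, one panel per gene, with groups on the x axis, a point per library and a bar at the group mean; axes are log scaled except for Igfbp2. Igfbp6 and Igfbp7 separate all P10 from all P2 libraries, Igfbp3 is low in the 6 P5 libraries and high in most P13 libraries, and Igf1r and Igf2r spread widely within the sham groups.

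Igf1, the ligand, was not called in any age comparison. At P2 baseline it was at 62.2, 66.2 and 78.4 CPM, and at P10 baseline at 150, 63.8 and 39.5 CPM, so that the P10 libraries spanned the whole P2 range. Over the 9 libraries of each window it ran from 49.8 (median 74.8) to 130 CPM at P2 and from 39.5 (median 137) to 197 CPM at P10. Its log2 fold change in the window comparison was 0.57 (SE 0.24, adjusted p = 0.123 from edgeR). With the long-gene score as a covariate this was 0.61 (edgeR adjusted p = 0.0186), without the 3 libraries that stand apart 0.18 (edgeR adjusted p = 0.508), and without P10 baseline replicate 1 alone 0.33 (edgeR adjusted p = 0.252). At baseline the log2 fold change was 0.29 (SE 0.41, edgeR adjusted p = 0.772) and turned to -0.41 (SE 0.29, edgeR adjusted p = 0.354) without the 3 libraries, and it stayed at 0.29 (edgeR adjusted p = 0.588) with the covariate. The 3 P10 resected libraries, at 159, 137 and 158 CPM, all lay above the 3 P2 resected libraries, at 74.8, 92.4 and 130 CPM, with a log2 fold change of 0.61 (SE 0.41, edgeR adjusted p = 0.819). The group means were ordered from P10 resected +3 days (151 CPM) down to P2 baseline (68.9 CPM), and each neighbour in that order overlapped the next. Macrophages also make Igf1. The summed macrophage markers were 15.0 to 69.7 CPM at P2 baseline, 75.4 to 470 CPM at P2 resected +3 days, and 80.6 to 1144 CPM at P10 resected +3 days, and their part in the level of Igf1 was not tested.

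The receptor genes Igf1r and Igf2r had negative log2 fold changes in each of the 4 age comparisons with all libraries, and neither was called. Igf1r was at 77.1, 80.6 and 49.4 CPM at P2 baseline and at 78.1, 36.8 and 29.8 CPM at P10 baseline. Its window log2 fold change was -0.58 (SE 0.31, edgeR adjusted p = 0.245), and -0.15 without P2 sham replicate 1 (edgeR adjusted p = 0.758). Igf2r was at 390, 523 and 339 CPM at P2 baseline and at 424, 266 and 168 CPM at P10 baseline, with a window log2 fold change of -0.59 (SE 0.26, edgeR adjusted p = 0.148). That of Igf2r was -0.35 without P2 sham replicate 1 (edgeR adjusted p = 0.355) and -0.81 without P10 sham replicate 1 (edgeR adjusted p = 0.0307), and voom called it at -0.66 (adjusted p = 0.00633). So did edgeR with a block for the replicate number, at -0.65. For both, P10 baseline replicate 1 lay within the P2 baseline range and the other two P10 libraries below it. The receptors also spread widely within sham groups: at P2 sham +3 days Igf1r was at 102, 20.2 and 18.2 CPM and Igf2r at 457, 140 and 168 CPM. In each of these groups the high value came from the library with the high long-gene score.

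That score moved with the receptors across libraries. Taking each library's log2 CPM as its deviation from the group mean, Igf1r correlated with the deviation of the score at r = 0.92 and Igf2r at 0.93 over 18 libraries, followed by Igfbp5 at 0.83 and Igf1 at 0.70. Igfbp6 went the other way at -0.80 and Igfbp4 at -0.55, while Igfbp7 (-0.23) and Igfbp3 (0.35) were weakly related. The genes with high r have long transcripts, from 6006 bp of exon in Igfbp5 to 16791 bp in Igf1r, and Igfbp6 has 1112 bp, but Igfbp7, with an r near 0, is about as short at 1209 bp. The score is computed over long and short genes in general, and both measures come from the same libraries. With the score as a covariate, the window log2 fold change of Igf2r was -0.39 (SE 0.11, edgeR adjusted p = 0.0195) and that of Igf1r was -0.25 (SE 0.14, adjusted p = 0.221). Without the 3 libraries that stand apart they were -0.70 (SE 0.14, adjusted p = 0.00247) and -0.50 (SE 0.14, adjusted p = 0.0186) from edgeR. In the baseline comparison the same omission gave -1.05 for Igf1r (edgeR adjusted p = 0.0105) and -0.94 for Igf2r (edgeR adjusted p = 0.0190), while the covariate gave -0.25 (edgeR adjusted p = 0.557) and -0.32 (edgeR adjusted p = 0.310). In the sham comparison, where Igf1r had -0.74 with all libraries, the omission gave 0.02 (SE 0.27, edgeR adjusted p = 1) and the covariate -0.41 (SE 0.24, edgeR adjusted p = 0.316).

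**Figure D3:**
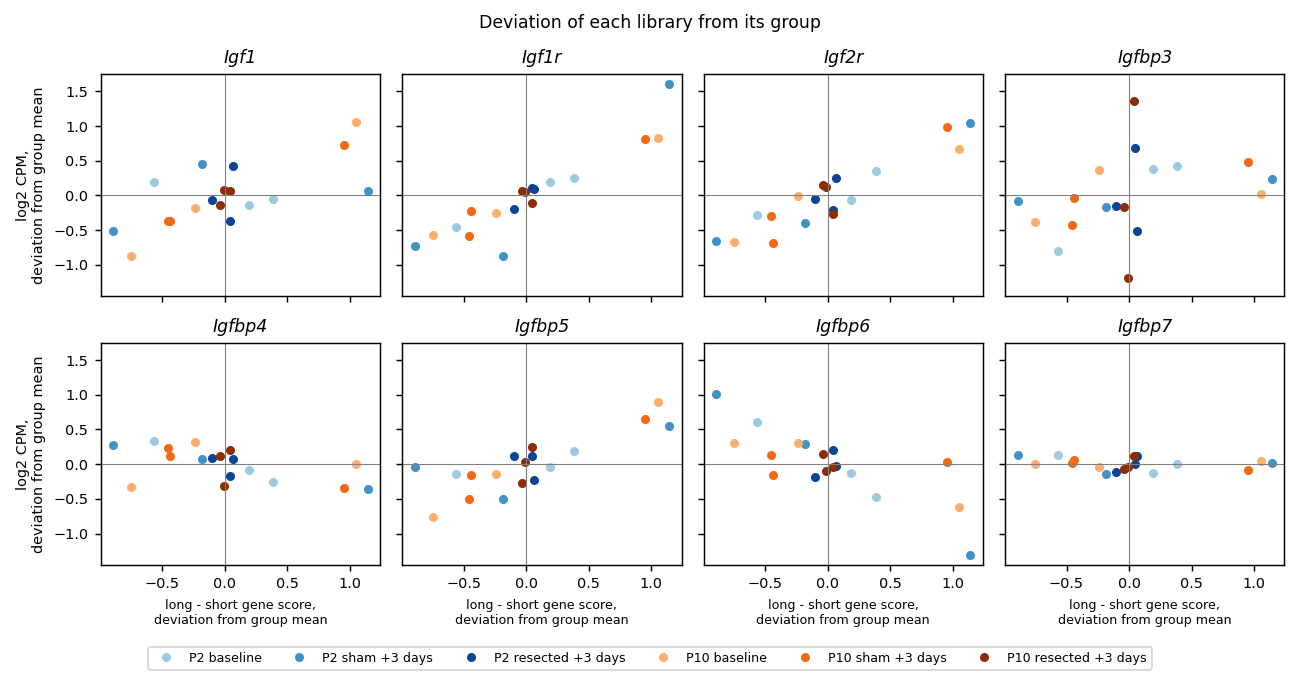
For 8 members, the log2 CPM of each library as its deviation from its group mean (y axis) against the deviation of its long minus short gene score (x axis, log2 units), colored by group. Igf1r and Igf2r climb with the score (r = 0.92 and 0.93 over 18 libraries), Igfbp6 descends (r = -0.80), and Igfbp7 stays near 0.

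Igfbp6, a binding protein with a preference for IGF2, had the largest age difference of the 8 members at baseline, after resection and in the window comparison. After resection Igfbp3 was close, at a log2 fold change of 2.22. With the long-gene score as a covariate Igfbp3 was ahead there, at 2.34 against 2.15 for Igfbp6. In un-manipulated P2 pups it was at 11.8, 9.16 and 19.5 CPM, at P2 sham +3 days at 11.4, 57.2 and 34.5 CPM, and at P2 resected +3 days at 32.1, 24.7 and 27.5 CPM. At P10 baseline it was at 62.6, 119 and 119 CPM, at P10 sham +3 days at 169, 181 and 149 CPM, and at P10 resected +3 days at 139, 164 and 143 CPM. The lowest P10 library was therefore above the highest P2 library. The log2 fold change was 2.89 (SE 0.44, adjusted p = 0.00116) at baseline, 2.27 (SE 0.43, adjusted p = 0.00593) after sham surgery and 2.40 (SE 0.43, adjusted p = 0.0106) after resection, from edgeR. The window comparison gave 2.52 (SE 0.25, edgeR adjusted p = 3.33e-06), a 5.75-fold difference. In the order of group means, P10 sham and P10 resected overlapped, both lay above P10 baseline, and P2 baseline overlapped P2 sham but not P2 resected. The call after resection was lost without P2 resected replicate 2 (edgeR adjusted p = 0.0983) or replicate 3 (0.0754), with log2 fold changes of 2.32 and 2.39. The sham call was lost when the sham groups were fitted alone (edgeR adjusted p = 0.110), and its log2 fold change was 2.87 without P2 sham replicate 2 (edgeR adjusted p = 0.00236).

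Igfbp7, the most abundant member, was higher at P10 by a similar factor in each comparison and varied little within groups. In un-manipulated P2 pups it was at 1772, 1932 and 2112 CPM, against 2276, 2458 and 2044 CPM at P2 sham +3 days, and at 2496, 2299 and 2718 CPM at P2 resected +3 days. At P10 it was at 3720, 3493 and 3625 CPM at baseline, at 3856, 4138 and 4241 CPM after sham surgery, and at 4229, 4122 and 4707 CPM after resection. Every P10 library lay above every P2 library. The log2 fold change was 0.90 (SE 0.15, adjusted p = 0.00259) at baseline, 0.85 (SE 0.15, adjusted p = 0.00369) after sham surgery and 0.80 (SE 0.15, adjusted p = 0.0148) after resection, and the window value was 0.85 (SE 0.09, adjusted p = 4.83e-06), from edgeR. The resected call was lost without P10 resected replicate 3 (edgeR adjusted p = 0.0797) and without P2 resected replicate 1 (0.0567), replicate 2 (0.147) or replicate 3 (0.0571), with log2 fold changes of 0.74 to 0.86, and without the filter on low counts (0.119). The sham call was lost when the sham groups were fitted alone (edgeR adjusted p = 0.158). Vascular cells are another known source of Igfbp7. The summed endothelial markers were 416 to 565 CPM at P2 baseline and 483 to 650 CPM at P10 baseline, and the mural markers were 560 to 884 CPM and 1073 to 2041 CPM. In the sham groups the endothelial sums were 334 to 457 CPM at P2 and 458 to 712 CPM at P10, without overlap. In the resected groups the mural sums overlapped, at 799 to 1436 CPM at P2 and 951 to 1408 CPM at P10. Their part in the difference was not tested.

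Igfbp4, a binding protein that inhibits IGF action and is cut by the protease PAPPA, was called at baseline and in the window comparison. Its baseline values at P2 were 827, 733 and 1108 CPM, against 1075, 1675 and 1456 CPM at P2 sham +3 days, and at 1352, 1626 and 1611 CPM at P2 resected +3 days. At P10 it was at 1782, 2219 and 1418 CPM at baseline, at 1565, 2315 and 2137 CPM after sham surgery, and at 1722, 2305 and 2446 CPM after resection. The baseline groups did not overlap, and the sham groups did. The log2 fold change was 1.02 (SE 0.24, adjusted p = 0.0198) at baseline, 0.52 (SE 0.24, adjusted p = 0.288) after sham surgery, 0.50 (SE 0.24, adjusted p = 0.571) after resection and 0.68 (SE 0.14, adjusted p = 0.00255) in the window comparison, from edgeR. The baseline call was lost without P10 baseline replicate 2 (log2 fold change 0.85, edgeR adjusted p = 0.121), P2 baseline replicate 1 (0.97, adjusted p = 0.100) or P2 baseline replicate 2 (0.90, adjusted p = 0.108), and when the baseline groups were fitted alone (edgeR adjusted p = 0.0696). Whether the baseline difference was larger than that after surgery is the interval test given below, in which Igfbp4 was not called.

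Igfbp5, a matrix-bound binding protein, was not called by edgeR in the window comparison and was by DESeq2 and voom. With a block for the replicate number edgeR called it too, at a log2 fold change of 0.61. At baseline it was at 144, 168 and 134 CPM at P2 and at 292, 142 and 92.2 CPM at P10, and these groups overlapped. Over the windows it ran from 75.9 (median 144) to 170 CPM at P2 and from 92.2 (median 207) to 344 CPM at P10. The window log2 fold change was 0.65 (SE 0.21, edgeR adjusted p = 0.0533), with 0.67 from DESeq2 (adjusted p = 0.0291) and 0.54 from voom (adjusted p = 0.0118). Leaving out P10 sham replicate 2, P10 baseline replicate 3 or P2 sham replicate 1 also brought it under the threshold with edgeR (0.72 to 0.75, adjusted p 0.0190 to 0.0390), and with the long-gene score as a covariate it was 0.73 (SE 0.13, edgeR adjusted p = 0.000633). Igfbp5 was one of the members that moved with that score, and P10 sham replicate 1, which stands apart by it, had the highest value. Without the 3 libraries that stand apart the window log2 fold change was 0.43 (SE 0.13, edgeR adjusted p = 0.0326), and that at baseline turned from 0.24 to -0.34 (SE 0.24, edgeR adjusted p = 0.339). With the covariate the baseline value was 0.31 (edgeR adjusted p = 0.411). After sham surgery it was 1.01 with the covariate (edgeR adjusted p = 0.0100) and after resection 0.88 (edgeR adjusted p = 0.0478). Neither was called without the covariate.

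**Figure D4:**
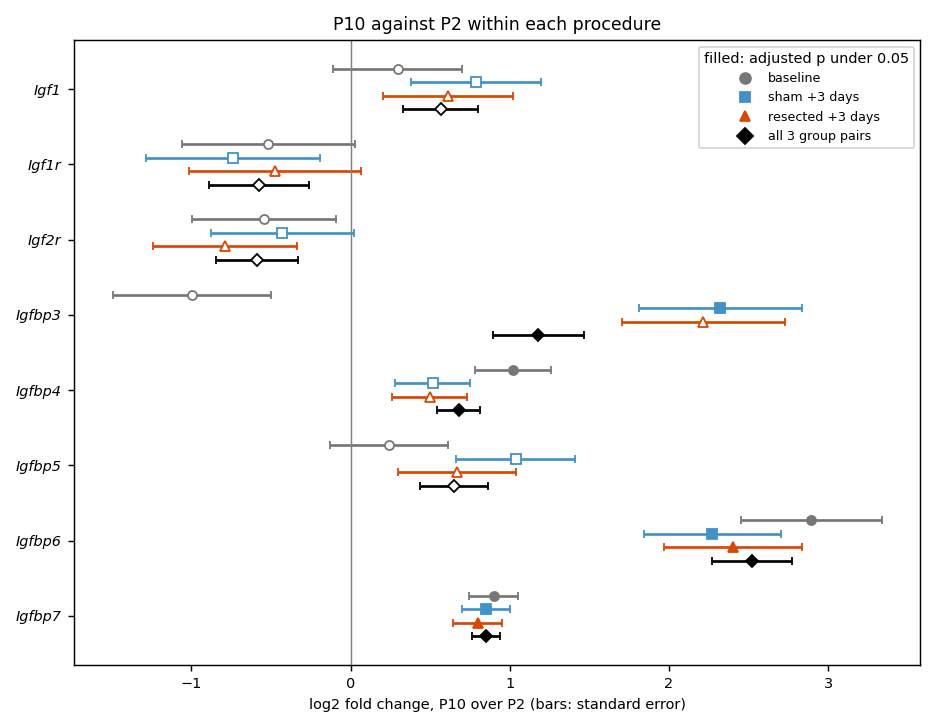
Log2 fold change of P10 over P2 for the 8 tested members (x axis) in the baseline, sham, resected and window comparisons, with standard errors as bars and filled symbols where edgeR's adjusted p was under 0.05. Igfbp6 lies between 2.27 and 2.89 and Igfbp7 between 0.80 and 0.90 throughout, while Igfbp3 is at -0.999 at baseline and at 2.32 and 2.22 in the sham and resected groups.

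Igfbp3, the main IGF carrier in serum, did not keep 1 direction. Un-manipulated P2 pups had 262, 268 and 115 CPM, against 89.8, 72.1 and 67.5 CPM at P2 sham +3 days, while libraries of P2 resected +3 days had 130, 72.9 and 56.9 CPM. At P10 baseline it was at 106, 136 and 80.7 CPM, at P10 sham +3 days at 515, 275 and 359 CPM, and at P10 resected +3 days at 136, 277 and 795 CPM. At baseline the older group had the lower mean, and after either operation it had the higher. The log2 fold change of P10 over P2 was -0.999 (SE 0.50, adjusted p = 0.293) at baseline, 2.32 (SE 0.52, adjusted p = 0.0169) after sham surgery, 2.22 (SE 0.51, adjusted p = 0.0503) after resection and 1.18 (SE 0.29, adjusted p = 0.0100) in the window comparison, from edgeR. Without the filter on low counts the baseline value was -0.938 and was called (edgeR adjusted p = 0.0498). The sham call was lost without P10 sham replicate 1 (edgeR adjusted p = 0.0649), P2 sham replicate 2 (0.0630) or P2 sham replicate 3 (0.0721), with log2 fold changes of 2.05 to 2.30, and without the 3 libraries that stand apart (0.0797). The resected value passed the threshold under DESeq2 (adjusted p = 0.00152) and voom (0.0190). Without P10 resected replicate 3, at 795 CPM, it was 1.27 (edgeR adjusted p = 0.501). The window value averages over these directions.

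The change over the 3-day interval was then compared between the ages. Each baseline group was set against the operated groups collected 3 days later, pooled over sham and resected pups, and this comparison was added after the values had been seen. The interval holds both growth and an operation, which cannot be told apart in this design. From P2 baseline to the P5 groups the log2 fold change of Igfbp3 was -1.40 (SE 0.41, edgeR adjusted p = 0.392), and from P10 baseline to the P13 groups it was 1.87 (SE 0.47, edgeR adjusted p = 0.193). Their difference was 3.27 (SE 0.62, unadjusted p = 6.12e-05, edgeR adjusted p = 0.0684), which was not under the threshold. DESeq2 called it (3.26, adjusted p = 0.000184), and leaving out any P10 resected replicate also brought it under the threshold with edgeR (2.78 to 3.47, adjusted p 0.0322 to 0.0340). Over all alternatives the value ran from 2.78 to 3.57 and its adjusted p from 1.59e-13 to 0.236. Every P2 sham library was below every P2 baseline library and every P10 sham library above every P10 baseline library. P10 resected replicate 1, at 136 CPM, was level with the highest P10 baseline library, and P2 resected replicate 1, at 130 CPM, was above the lowest P2 baseline library. The summed endothelial markers, another known source of Igfbp3, were 334 to 457 CPM at P2 sham +3 days and 458 to 712 CPM at P10 sham +3 days. They were 469 to 623 CPM at P2 resected +3 days and 566 to 689 CPM at P10 resected +3 days, beside 416 to 565 CPM at P2 baseline and 483 to 650 CPM at P10 baseline. Their part was not tested.

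Of the other 7 members, Igfbp5 alone had opposite signs, at -0.16 (SE 0.32) from P2 baseline to P5 and 0.46 (SE 0.33) from P10 baseline to P13 on the log2 scale, each within 1.5 standard errors of 0. With the long-gene score as a covariate the P10 value of Igfbp5 was 0.63 (SE 0.20, edgeR adjusted p = 0.194), and without the 3 libraries that stand apart it was 0.84 (SE 0.22, edgeR adjusted p = 0.188). With edgeR 0 of the 8 members were called from P2 baseline to P5 (0.0495% of all genes were called), 0 from P10 baseline to P13 (0.0124%) and 0 for the difference between these (0.0557%). An unadjusted p under 0.05 was reached by 4, 1 and 1 members (6.13%, 8.29% and 7.12% of all genes). DESeq2 called 1 in each, Igfbp4 in the first and Igfbp3 in the others, beside 1.02%, 1.78% and 1.28% of all genes. From P2 baseline to P5 the log2 fold change was 1.21 for Igfbp6 (SE 0.38, edgeR adjusted p = 0.473) and 0.72 for Igfbp4 (SE 0.21, edgeR adjusted p = 0.392), and DESeq2 called Igfbp4 (adjusted p = 0.0485). For the difference between the intervals Igfbp4 had -0.52 (SE 0.29, edgeR adjusted p = 0.787). In the sham groups alone, 0 members were called against baseline at P2 (0% of all genes) and 0 at P10 (0.00618%) with edgeR, with 3 and 1 at an unadjusted p under 0.05 (7.60% and 7.40% of all genes). DESeq2 called 0 and 1, the latter being Igfbp3, beside 1.09% and 1.01% of all genes. Libraries of sham and baseline did not overlap for 1 member at P2 (9.96% of all genes) and for 3 at P10 (10% of all genes), the latter being Igfbp3, Igfbp6 and Igfbp7. Without the 3 libraries that stand apart, P2 sham against baseline gave -1.85 for Igf1r (edgeR adjusted p = 0.00843), -1.44 for Igf2r (edgeR adjusted p = 0.0194) and 1.77 for Igfbp6 (edgeR adjusted p = 0.00998). With the score as a covariate these were -0.43, -0.47 and 0.86, none of them called (edgeR adjusted p 0.326 to 0.536). From P2 baseline to P5 the omission gave -1.0003 for Igf1r (edgeR adjusted p = 0.0363) and 1.42 for Igfbp6 (edgeR adjusted p = 0.0242), and the covariate -0.26 and 0.98 (edgeR adjusted p = 0.749 and 0.158).

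**Figure D5:**
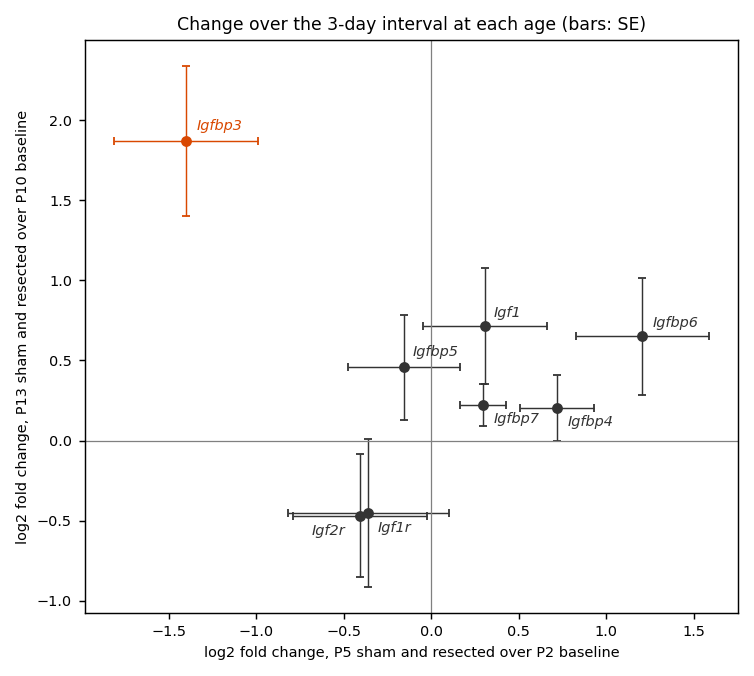
Log2 fold change over the 3-day interval at P2 (x axis, P5 sham and resected libraries over P2 baseline) and at P10 (y axis, P13 libraries over P10 baseline) for 8 members, with standard errors as bars. Igfbp3 lies far in the upper left, at -1.40 and 1.87, Igfbp5 is also there near the origin, and Igf1r and Igf2r lie below 0 on both axes, within 1.5 standard errors with all libraries in the fit.

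Resection was compared with sham surgery at each age, the response to injury proper. With edgeR 0 of the 8 members were called at P2 and 0 at P10, where 0% of all genes were called in either, and 0 for the difference between the responses (0% of all genes). None reached an unadjusted p under 0.05 in these 3 comparisons, where 4.51%, 4.09% and 2.88% of all genes did. DESeq2 and voom called 0 members in each, and DESeq2 called 0.20%, 0.206% and 0.115% of all genes. No member's resected libraries were clear of its sham libraries at either age, while 8.47% of all genes had such groups at P2 and 8.68% at P10. The log2 fold changes ran from -0.29 (Igfbp6) to 0.61 (Igf2r) at P2 and from -0.16 (Igfbp6) to 0.67 (Igf1r) at P10. The standard errors were 0.15 for Igfbp7, 0.24 for Igfbp4 and 0.54 for Igf1r at both ages, so that the precision differed much between members.

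For the ligand and the receptors the sham libraries spread more widely than the resected ones at P10, and for the receptors also at P2. Igf1 was at 73.9, 49.8 and 97.1 CPM at P2 sham +3 days and at 74.8, 92.4 and 130 CPM at P2 resected +3 days, with a log2 fold change of 0.43 (SE 0.41, edgeR adjusted p = 1). At P10 it was at 197, 92.2 and 92.3 CPM after sham surgery and at 159, 137 and 158 CPM after resection, with a log2 fold change of 0.25 (SE 0.41, edgeR adjusted p = 1). In both cases the highest sham library lay inside or above the resected range. Igf1r was at 66.3, 53.9 and 65.7 CPM at P2 resected +3 days and at 45.8, 46.3 and 41.4 CPM at P10 resected +3 days, against 45.2, 17.1 and 21.9 CPM at P10 sham +3 days. Igf2r was at 334, 374 and 461 CPM at P2 resected +3 days. The resected groups were thus tight and the sham groups wide for both receptors. Without the 3 libraries that stand apart, of which P2 sham replicate 1 is one, Igf1r was higher after resection at P2 with a log2 fold change of 1.69 (SE 0.26, edgeR adjusted p = 0.0219) in place of 0.40 (SE 0.54, edgeR adjusted p = 1). Igf2r had 1.34 (SE 0.26, edgeR adjusted p = 0.0529) in place of 0.61 (SE 0.45, edgeR adjusted p = 1). With the long-gene score as a covariate instead, these values were 0.33 (SE 0.24, edgeR adjusted p = 0.825) and 0.41 (SE 0.19, edgeR adjusted p = 0.627). At P10 the same omission gave 1.19 for Igf1r in place of 0.67 (edgeR adjusted p = 0.143), 0.92 for Igf2r in place of 0.25 (edgeR adjusted p = 0.241) and 0.71 for Igf1 in place of 0.25 (edgeR adjusted p = 0.425), none of them called.

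Igfbp2, a binding protein of fetal and adult serum, was barely counted. There were 14 and 5 counts in P2 resected replicates 2 and 3, 12 in P10 resected replicate 1, 1 in P10 baseline replicate 3, and 0 in the other 14 libraries, where a count of 0 allows up to 3 counts. Nearly all counts therefore came from resected hearts, though from 3 of 6 libraries. Those 3 libraries had counts on 19707, 20044 and 19847 genes, against 16256 to 17213 in the sham libraries, and of the resected libraries without Igfbp2 counts P2 resected replicate 1 had 20163 and the P10 ones 17334 and 17080. The part of this in the counts of Igfbp2 was not tested. Set against 3 counts over the summed sham libraries, which had 0, the level at P2 resected +3 days gave a ratio of 6.32. Leaving out P2 resected replicate 2 lowered this ratio to 2.77, and leaving out 1 of the sham libraries to 3.98 to 4.67. The same ratio at P10 came to 4.65, which rests on 1 library, and to 2.91 to 3.38 with 1 sham library left out. Without P10 resected replicate 1 both P10 groups were at 0. These ratios allow for counting error in the 0 of the sham groups only. The 19, 5 and 12 counts after resection entered as they stood, so the ratios are not lower limits. Error from other sources is not covered either, as the reads carried no molecular identifiers. The summed epicardial markers were 62.5 to 81.5 CPM at P2 resected +3 days against 67.1 to 77.1 CPM at P2 sham +3 days, and 50.1 to 99.3 CPM at P10 resected +3 days against 30.8 to 40.0 CPM at P10 sham +3 days. Their part was not tested.

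Other genes of the pathway were taken from a list of 24, of which 20 were tested; Igfbp1, Igfbpl1, Igfals and Pappa2 did not pass the filter. At baseline 1 was higher and 1 lower at P10, and the same numbers held after sham surgery (all genes as given above). After resection 0 were called by edgeR, with 5 at an unadjusted p under 0.05 (8.77% of all genes) and 2 called by DESeq2 (3.63% of all genes). In the window comparison 2 were higher and 4 lower, against the 7.11% and 6.39% of all genes above. DESeq2 called 9 there, and 19.4% of all genes. The median log2 fold change of the 20 genes was 0.06, beside -0.06 for all genes.

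Among these 6 calls, Htra1 and Adam12 code for proteases that cut binding proteins, and Stc1 and Stc2 for inhibitors of such a protease. The protease gene Pappa was tested as well and was not called. Htra1, a secreted serine protease that cuts binding proteins among other matrix substrates, was at 90.2, 77.8 and 128 CPM at P2 baseline and at 355, 413 and 360 CPM at P10 baseline. Its log2 fold change was 1.93 (SE 0.24, adjusted p = 0.000252) at baseline, 1.42 (SE 0.24, adjusted p = 0.00245) after sham surgery and 1.44 (SE 0.14, adjusted p = 2.41e-06) in the window comparison, from edgeR. After resection it was 0.98 (SE 0.24, edgeR adjusted p = 0.0668), which was not called. Adam12, a metalloprotease that cuts IGFBP3 and IGFBP5, went the other way. It was at 32.7, 44.1 and 14.7 CPM at P2 baseline and at 10.6, 14.0 and 5.82 CPM at P10 baseline, with log2 fold changes of -1.58 (SE 0.43, adjusted p = 0.0428), -1.91 (SE 0.43, adjusted p = 0.0185) and -1.58 (SE 0.25, adjusted p = 0.000278) in the same 3 comparisons. After resection it was -1.25 (SE 0.42, edgeR adjusted p = 0.248). The baseline call of Adam12 was lost without any one of the P10 baseline libraries and without P2 baseline replicate 1 or 2 (edgeR adjusted p 0.0595 to 0.193).

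The stanniocalcins, which inhibit the protease PAPPA, moved in opposite directions. Stc2 ran from 7.98 (median 13.8) to 19.7 CPM over the P2 libraries and from 17.8 (median 27.8) to 37.6 CPM over the P10 libraries, with a window log2 fold change of 0.97 (SE 0.19, edgeR adjusted p = 0.00206). Stc1 ran from 2.41 (median 16.3) to 32.0 CPM and from 1.16 (median 7.80) to 12.7 CPM, with -1.52 (SE 0.48, edgeR adjusted p = 0.0442). That call was lost when any of 14 of the 18 libraries was left out, and without P2 sham replicate 1 the value was -0.88 (edgeR adjusted p = 0.151). It was also lost with the long-gene score as a covariate (-1.09, edgeR adjusted p = 0.132) and without the 3 libraries that stand apart (-0.86, edgeR adjusted p = 0.118). Stc1 shares 5.46% of its exon bases with the antisense gene Gm41192.

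Of the receptor adaptors, Grb10 and Grb14, which bind and dampen the insulin and IGF1 receptors, were called lower at P10 in the window comparison. Neither was called by edgeR in the baseline, sham or resected comparison. Grb10 ran from 254 (median 450) to 583 CPM over the P2 libraries and from 174 (median 253) to 332 CPM over the P10 libraries, with a window log2 fold change of -0.81 (SE 0.17, edgeR adjusted p = 0.00324). Grb14 ran from 10.2 (median 18.8) to 29.6 CPM and from 2.15 (median 9.29) to 13.1 CPM, with -1.15 (SE 0.28, edgeR adjusted p = 0.0106). Downstream, Pik3ca, Pik3r1, Akt1, Akt2, Foxo1 and Foxo3 were not called by edgeR in the window comparison, with Foxo1 at the threshold (log2 fold change 0.59, adjusted p = 0.050003), nor were Insr, Irs1, Irs2, Shc1, Ghr and Pappa. The second ligand, Igf2, had a window log2 fold change of -0.30 (SE 0.22, edgeR adjusted p = 0.407). Its value is uncertain, because 62.8% of its exon bases are shared with Gm49394 on the same strand and reads on both would have been left out by the authors' counting. In the resection comparisons 0 of the 20 genes were called by edgeR or DESeq2 at either age, with 0 at P2 and 2 at P10 at an unadjusted p under 0.05 (all genes as given for the members).

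Across the 18 libraries the members fell into pairs that went together, which is given as a description, since the libraries share age, depth and the long-gene balance. The Pearson correlation of log2 CPM was 0.93 between Igfbp6 and Igfbp7, 0.86 between Igfbp4 and Igfbp6, 0.83 between Igfbp4 and Igfbp7, and 0.92 between Igf1r and Igf2r. Taken as deviations from group means, Igfbp6 and Igfbp7 correlated at 0.16, so that their likeness lay between the groups. Igf1r and Igf2r still correlated at 0.90 within groups, and Igf1r and Igfbp6 at -0.82.

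The genes most like each member over the 18 libraries were named as the 3 with the highest correlation among the 16170. For Igfbp6 they were Ackr3 (0.98), Entpd2 (0.98) and Clec3b (0.98), and for Igfbp7 Crispld2 (0.98), Pi16 (0.97) and Adamtsl4 (0.97). Igfbp4 went with Btd (0.92), Gas6 (0.92) and Cygb (0.91), and Igfbp5 with Tgfbr3 (0.91), Slit3 (0.90) and Lrp1 (0.89). Igfbp3 had the loosest neighbours together with Igf1, namely Slc43a3 (0.87), H2-T23 (0.86) and Ms4a4d (0.85), and those of Igf1 were Adam17 (0.88), Osmr (0.87) and Wasl (0.85). Igf1r was closest to Fnbp4 (0.95), Syne1 (0.95) and Son (0.94), and Igf2r to Fbn2 (0.94), Slf2 (0.93) and Fn1 (0.93).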

How the data were processed

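RNA of GFP+ cells was amplified with SMARTer v4, made into Nextera XT libraries and read from a single end. The deposited values are counts per gene symbol, which the authors made with fastp 0.20.0, STAR 2.7.0f on GRCm38.p6 with GENCODE M22, and featureCounts of Subread 1.6.4 on exons, without regard to strand and without normalization. Members, lists and comparisons were chosen with earlier results of these data known. Here, counts were fitted with edgeR 4.0.16 in R 4.3.3 (TMM, filterByExpr at its settings of 10 counts and 15 in total, a mean per group over 18 libraries, quasi-likelihood tests, Benjamini-Hochberg adjustment). The study names DESeq2, and DESeq2 1.42.0 and voom of limma 3.58.1 were alternatives, with other scaling, no filter, a replicate block and each library left out. The 3-day interval comparisons and both settings on the long-gene score were chosen after seeing the data. Replicates are libraries given separate numbers by the labels. Same-numbered libraries correlated at -0.13 to 0.38 in their deviations from group means (15 of 45 pairs over 0.1). Of the compared groups, all 3 pairs exceeded 0.1 between the resected groups and between P10 baseline and P10 sham, where a replicate block changed no member's call; elsewhere the numbers were not taken as pairs. All 9 members are described, pathway genes called in the baseline or window comparison are given with values, and 3 genes per member by correlation of log2 CPM (prior count 2). Exon lengths and positions come from GENCODE M21 on GRCm38, and RefSeq promoters matched all 9 symbols. No protein sequences were used here, and 1 gene of the pathway list is not reported here. Depth was 10462737 to 22980554 counts per library.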

Additional observations from a re-analysis of the deposited data

Results flagged for a closer look

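Igfbp3 had log2 fold changes of opposite sign over the 3-day interval at the 2 ages: every P2 sham library lay below every P2 baseline library, and every P10 sham library lay above every P10 baseline library. Such separation held for 9.96% and 10% of all genes, and at P10 also for Igfbp6 and Igfbp7. P2 resected replicate 1, at 130 CPM, lay within the P2 baseline range, and P10 resected replicate 1, at 136 CPM, was level with the highest P10 baseline library. Over sham and resected libraries together the 2 interval changes differed by 3.27 on the log2 scale (SE 0.62), with an adjusted p of 0.0684 from edgeR's quasi-likelihood test, so that the difference did not pass the threshold there. The comparison was chosen after the values had been seen, and the interval holds growth as well as surgery.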

How the results depend on the processing

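Where 3 members were called at baseline, 5 were without the 3 libraries with a high length score. Of the 3 sham calls, 1 was left when only the groups compared were fitted. After resection the 2 calls became 4 with the length score as a covariate and 0 to 3 with a library left out. The 4 window calls became 7 without the filter on low counts, 7 with the length score and 7 without the 3 libraries. Calls over all genes moved as well, in the window comparison from 13.5% to 9.54%, 21.4% and 22.5%, at baseline from 4.38% to 16.8% without the 3 libraries, and after resection from 0.860% to 2.79% with the length score. Without those libraries 1 member was called for resection at P2 and 3 for P2 sham against baseline, which gave 2 without the filter (0.155%, 2.76% and 0.381% of all genes). For P10 sham against baseline DESeq2 called 1 and the fit without the filter 1 (1.01% and 0.522% of all genes). From P2 baseline to P5, DESeq2 called 1, the fit without the filter 2, voom 2 and the fit without the 3 libraries 2 (1.02%, 0.560%, 0.711% and 0.418%). From P10 baseline to P13, DESeq2 and the fit without the filter each called 1 (1.78% and 0.955%). For the difference between the intervals, DESeq2, voom, the length score and the fit without the filter each called 1 (1.28%, 0.439%, 0.223% and 0.813%), and leaving out a library gave 0 to 1. The causes of these moves were not tested. For 37 chosen values of single genes, 696 alternatives gave 613 with the same call and direction, 39 that lost a call, 44 that gained one and 0 reversed. These 37 do not include Igf1 and Igfbp5 at baseline or Igf1r after sham surgery, whose signs turned without the 3 libraries.

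With a replicate block the members called were 3, 3, 2 and 6 in the baseline, sham, resected and window comparisons and 0 in the others (6.23%, 3.93%, 1.15% and 17.0% of all genes in the first 4). The block added Igf2r (-0.65, edgeR adjusted p = 0.0473) and Igfbp5 (0.61, edgeR adjusted p = 0.0252) to the window calls. Depth limits Igfbp2 alone among the members.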
